A study of Mus musculus with 9 samples.

Results

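The effect of ovariectomy on bone marrow endothelial progenitor cells (EPCs) was examined by RNA sequencing of F-EPCs, from intact female mice, and OVX-EPCs, from ovariectomized female mice, in 3 libraries per group. The genes described are all those listed in the deposited table of this comparison, with the 14 genes on chromosome X left out and 0 on chromosome Y, which left 797 of 811 genes. The 3 tables of the series hold 2810 genes in all. Both groups were Sca-1+/CD31+ cells sorted with magnetic beads from lineage-depleted marrow of 8-week-old C57BL/6J mice. The methods describe growth of such cells in EGM-2 medium without estrogen. Ovariectomy was done at about 35 days of age. The labels call the cells freshly isolated and also describe culture, so it is not settled whether RNA was taken before or after culture. They do not say whether the libraries of a group came from separate animals. The methods speak of biological replicates and of independent biological experiments, but not of separate mice per library. The p-values therefore measure the spread between these libraries, which may be technical.

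Estrogens act through nuclear receptors in marrow stromal, vascular and blood cells, and ovariectomy removes the main source of circulating estradiol. EPC cultures from marrow hold blood-derived as well as vascular cells, and their secreted chemokines and growth factors are studied for repair of the heart. Interferons, which many of the genes below answer to, come in a type I form that induces antiviral genes and a type II form, interferon gamma, that strongly induces antigen presentation on MHC class II.

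Values are normalized counts, the reads on a gene scaled with 1 factor per library from the deposited table. The size factors lay between 0.955 and 1.05, and between 452505 and 466963 reads per library fell on the 797 genes. Genes outside the table were not used here, so library depth as a whole is unknown. A count of 0 reads allows up to 3, which is the floor used below, and floors and intervals cover counting error only. Fold changes are differences of the mean log2 of the normalized count plus 1, OVX-EPC minus F-EPC, with the standard error (SE) and the adjusted p-value of limma over the 797 genes. Calls needed a limma adjusted p-value below 0.05 together with a change of 1 or more on the log2 scale, up or down.

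The listing had already selected genes that differ between these same libraries. Accordingly 782 of the 797 genes were called, 98.1%, and the libraries of the groups did not overlap in 788 genes, 98.9%. These shares describe the selection and carry no independent evidence. The direction was up in OVX-EPCs for 547 members and down for 250, with 537 called higher, 67.4%, and 245 called lower, 30.7%. The median log2 fold change was 1.30. The smallest absolute log2 fold changes were 0.99, for Stac2 among the higher genes and Dmpk among the lower genes, and genes under the authors' screen are not in the table. In an alternative, the libraries were scaled so that the listed genes balance (edgeR with RLE factors of the listed genes). The median then moved by -1.12, and the split became 143 called higher against 250 called lower. With the authors' size factors edgeR called 546 higher and 250 lower, beside 537 and 245 by limma. Scaling with RLE factors centres the listed genes by construction and lowers nearly all values by a like amount. Rises close to 1 can therefore cross 0 under it whatever the group of the gene. Single permutation tests over 3 against 3 libraries cannot go below p = 0.10 and were not used for calls.

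The higher and lower genes differed in level. Higher genes had a median of 22 (F-EPC) and 69.2 (OVX-EPC) normalized counts, whereas lower genes had medians of 128 and 46.2. In F-EPCs the lower genes took 75.7% of all normalized counts on the 797 genes, and in OVX-EPCs they took 28.5%. The 25 genes with 0 reads in every library of a group were at 0 in F-EPCs and belonged to the higher genes.

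**Figure D1:**
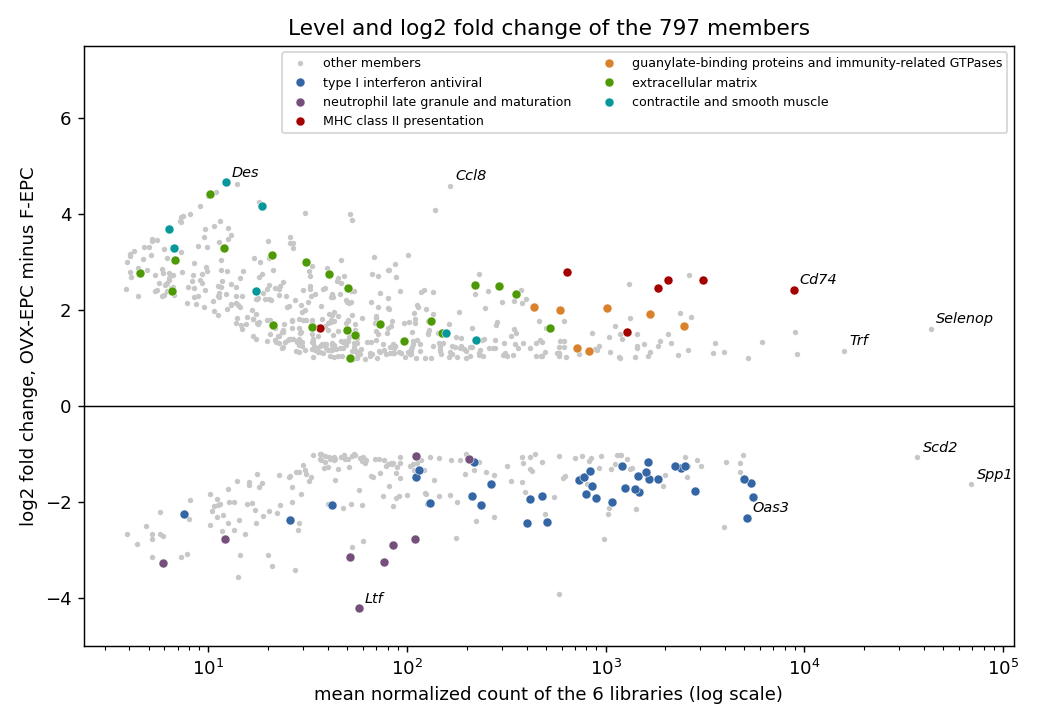
Mean normalized count of the 6 libraries (x axis, log scale) against the log2 fold change, OVX-EPC minus F-EPC (y axis), for the 797 genes, with 1 point per gene and 6 gene groups in colour. The empty band around 0 is the authors' screen. Interferon antiviral and neutrophil granule genes lie below 0, and MHC class II, GTPase, matrix and contractile genes above 0.

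The sort markers were both listed and went in opposite directions. Pecam1, which encodes the CD31 adhesion molecule of endothelium, platelets and many myeloid cells, had 171.8, 161.5 and 156.4 normalized counts in F-EPCs and 374.6, 387.6 and 371.2 in OVX-EPCs. Its log2 fold change was 1.21 (SE 0.11, adjusted p = 0.000299). Ly6a, the Sca-1 antigen of stem and progenitor cells, had 564.6, 608.0 and 617.7 in F-EPCs and 208.9, 248.8 and 264.2 in OVX-EPCs (log2 fold change -1.31, SE 0.14, adjusted p = 0.000445). Every library of each group was apart from those of the other for both genes. Under RLE factors Pecam1 was at 0.09 and no longer called, while Ly6a was at -2.43 and called. Among the other defining endothelial markers, Cdh5, Kdr, Tek, Tie1, Emcn and Vwf are not listed in this comparison. Vwf, Kdr and Tie1 are listed in the comparisons with M-EPCs, from male mice, each normalized on its own. Means there were 2351 (F-EPC) and 3452 (OVX-EPC) for Vwf, 343.3 and 368.6 for Kdr, and 46.99 and 78.81 for Tie1. Per kilobase of exon, Pecam1 stood at 26.2 (F-EPC) and 60.7 (OVX-EPC) normalized counts. Fcgr2b, the inhibitory IgG receptor of myeloid and B cells, stood at 792.1 and 2302 per kilobase, and Clec10a, a lectin of macrophages and dendritic cells, at 259.9 and 732.6. Both of these genes stood above Pecam1 in both groups, while other listed myeloid genes, such as Cd163 and Timd4 below, had fewer counts than Pecam1. What follows is described for the sorted population as labelled.

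The largest group that was lower in OVX-EPCs was that of type I interferon antiviral genes. Of 72 genes in the list, 38 were listed in the table, and all 38 were lower and called, against 30.7% of all members. Their median log2 fold change was -1.69 and the range was -2.44 to -1.15. Summed over the 38 genes, F-EPC libraries had 78405.6 to 83206.4 normalized counts and OVX-EPC libraries 25888.4 to 26209.2. In bulk RNA, fewer cells of a type and less RNA per cell cannot be told apart, here and for every group below.

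Many of these genes carry an interferon-stimulated response element, bound by the factors that interferon receptors activate. Its core was searched for in RefSeq promoters of GRCm38.p6 as GAAA, 2 bases of any kind, then GAAA, on both strands, in the 300 bases from 250 before to 50 after the start. Of the 38 antiviral genes 30 had a promoter in the table, and 16 of these, 53.3%, held the core, beside 3.47% of 15687 autosomal protein-coding promoters. It was also in all 4 promoters of guanylate-binding protein and GTPase genes, which were higher in OVX-EPCs. The 150 bases before the start are printed for 4 antiviral genes and for 2 genes of the opposite direction, to set the shared element beside the opposite changes, with the core in capitals. They lie at chr4:156200819-156200968, minus strand for Isg15, chr19:34640739-34640888, plus strand for Ifit1, chr19:34583379-34583528, plus strand for Ifit3, chr5:120777660-120777809, minus strand for Oas3, chr3:142620513-142620662, plus strand for Gbp2 and chr3:142559894-142560043, plus strand for Gbp3.
Isg15: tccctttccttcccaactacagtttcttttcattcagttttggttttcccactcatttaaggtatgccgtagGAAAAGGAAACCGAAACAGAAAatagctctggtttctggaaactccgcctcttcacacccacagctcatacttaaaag
Ifit1: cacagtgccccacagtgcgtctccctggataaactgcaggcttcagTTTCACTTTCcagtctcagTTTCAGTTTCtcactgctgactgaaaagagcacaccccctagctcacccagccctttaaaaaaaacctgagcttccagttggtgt
Ifit3: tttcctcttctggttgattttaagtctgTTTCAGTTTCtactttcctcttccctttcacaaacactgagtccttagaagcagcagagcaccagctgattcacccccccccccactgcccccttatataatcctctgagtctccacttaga
Oas3: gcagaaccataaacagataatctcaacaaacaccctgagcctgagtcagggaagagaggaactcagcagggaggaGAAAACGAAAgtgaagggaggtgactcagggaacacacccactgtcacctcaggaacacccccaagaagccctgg
Gbp2: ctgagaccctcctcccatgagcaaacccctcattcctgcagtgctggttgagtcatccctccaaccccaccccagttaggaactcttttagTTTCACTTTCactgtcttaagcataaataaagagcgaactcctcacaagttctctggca
Gbp3: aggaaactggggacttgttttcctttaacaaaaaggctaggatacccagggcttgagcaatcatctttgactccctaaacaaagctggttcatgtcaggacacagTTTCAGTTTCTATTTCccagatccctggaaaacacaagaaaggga
A match is a description of the letters in this window and does not show that a factor was bound.

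The antiviral genes span regulators, sensors and effectors. Irf7, the transcription factor that amplifies type I interferon production, had 8682, 8850 and 8616 normalized counts in F-EPCs and 2341, 2268 and 2424 in OVX-EPCs (log2 fold change -1.89, SE 0.10, adjusted p = 0.000104). Usp18, the protease that takes ISG15 off proteins and dampens the receptor, had the largest drop of the group, from 719.6, 669.2 and 657.0 to 139.2, 106.2 and 132.6 (log2 fold change -2.44, SE 0.15). Isg15 itself, the ubiquitin-like modifier whose promoter heads the sequences above, had 738.5, 819.8 and 695.4 in F-EPCs and 234.4, 201.0 and 180.7 in OVX-EPCs. Replicates stayed close in each of these genes and no libraries overlapped. Dhx58, a regulator of RNA sensing, was lower by a log2 fold change of -1.46.

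The oligoadenylate synthetases, whose product activates RNase L, were lower throughout the listed members. Oas3 had 8670, 8775 and 8368 normalized counts in F-EPCs and 1739, 1664 and 1752 in OVX-EPCs (log2 fold change -2.32, SE 0.10, adjusted p = 9.92e-05). Oasl2 was at 8575, 8182 and 7551 against 2452, 2786 and 2821. For Oas2 the log2 fold change was -1.51, and for Oas1g, Oas1h, Oas1a and Oas1b it lay between -1.83 and -1.33. The Oas1 genes are close copies of each other, and how reads that map to several copies were counted is not given in the sources used here, so their single values are uncertain.

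Effector genes moved alike. Ifitm3, which blocks entry of viruses into cells, had 7583, 7844 and 6800 normalized counts in F-EPCs and 2426, 2619 and 2767 in OVX-EPCs (log2 fold change -1.51, SE 0.12). Mx1, a GTPase that traps viral nucleoprotein, was at 1418, 1416 and 1403 against 374.6, 408.6 and 335.9, and its close relative Mx2 was lower by a log2 fold change of -1.88. Ifit3, an RNA-binding protein, had 2416, 2313 and 2152 in F-EPCs and 662.8, 636.4 and 676.7 in OVX-EPCs. Ifit1, Ifit3b and Ifit1bl2, its neighbours on chromosome 19, had log2 fold changes of -1.66, -1.63 and -2.25. Rsad2, the antiviral enzyme viperin, had one of the smaller changes, from 3621, 3456 and 3512 to 1535, 1459 and 1472. The exception to the separation of libraries was Ifitm6, with 57.6, 47.2 and 19.7 in F-EPCs and 2.0, 23 and 4.9 in OVX-EPCs.

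DNA-sensing Ifi genes and Schlafen genes, both clusters of interferon-induced genes, completed the group. Ifi208 had 409.6, 377.3 and 352.1 normalized counts in F-EPCs and 114.7, 67.9 and 92.3 in OVX-EPCs (log2 fold change -2.07), and its neighbours Ifi213 and Ifi209 on chromosome 1 had log2 fold changes of -1.71 and -1.24. Slfn1, which restrains T cell growth, was at 900.9, 832.8 and 817.4 against 145.1, 162.7 and 168.9 (log2 fold change -2.41, SE 0.12). Slfn4 and Slfn3 were lower by log2 fold changes of -1.94 and -1.19. Slfn14, in the same run of neighbours on chromosome 11, went the other way, from 9.4, 3.0 and 11.8 to 49.0, 66.0 and 54.0.

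Guanylate-binding proteins and immunity-related GTPases defend cells against intracellular pathogens. All 7 listed genes of this group, out of 20 in the list, were higher and called, with a median log2 fold change of 1.92, against 1.30 over all members and 67.4% called higher. Gbp2, a GTPase that attacks the vacuoles of intracellular pathogens, had 675.6, 747.5 and 691.5 normalized counts in F-EPCs and 2593, 2751 and 2640 in OVX-EPCs (log2 fold change 1.92, SE 0.11, adjusted p = 0.000104). Iigp1, an immunity-related GTPase, was at 1297, 1183 and 1088 against 3499, 4145 and 3652. Gbp4, Gbp5 and Gbp8 had log2 fold changes of 2.06, 2.0 and 2.03, and Gbp3 and Tgtp2 of 1.21 and 1.15. Gbp4 and Gbp8 overlap in the annotation, so reads between them could not be assigned with certainty. Irf1, a transcription factor induced by interferon gamma outside the lists and picked with its values in view, stood at 1210, 1253 and 1213 in F-EPCs and 3229, 2773 and 3206 in OVX-EPCs. Under RLE factors all 7 values stayed above 0 but under 1, from 0.03 for Tgtp2 to 0.95 for Gbp4, so none was called by edgeR.

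Antigen presentation on MHC class II was higher in each of its 7 listed genes out of 14, all called, beside 67.4% called higher over all members, with a median log2 fold change of 2.46. Under RLE factors H2-DMa and H2-Ob were no longer called. Ciita, the transactivator that switches these genes on, had 185.4, 149.5 and 147.5 normalized counts in F-EPCs and 1060, 1034 and 1242 in OVX-EPCs (log2 fold change 2.79, SE 0.15, adjusted p = 0.000104). Cd74, the invariant chain that guides class II molecules, was at 2908, 2870 and 2613 against 14769.0, 14155.3 and 16074.9 (log2 fold change 2.42, SE 0.12). The libraries of each group differed from each other by far less than the groups did. H2-Aa, H2-Ab1 and H2-Eb1, the chains of the class II molecules, had log2 fold changes of 2.62, 2.62 and 2.46. H2-Aa for example had 937.5, 818.7 and 837.0 in F-EPCs and 5367, 5313 and 5262 in OVX-EPCs. H2-DMa and H2-Ob, which act on peptide loading, had log2 fold changes of 1.53 and 1.62, the latter from 9.4, 25.1 and 19.7 to 44.1, 47.9 and 72.7. Class II levels mark B cells, macrophages and dendritic cells as well as activated cells, and cell type lists for these are given below. Of the class I list 2 of 30 genes were listed, H2-Q7 with a log2 fold change of 1.13 and H2-M2 with 5.2, 0 and 0 in F-EPCs and 30.4, 34.5 and 38.3 in OVX-EPCs.

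**Figure D2:**
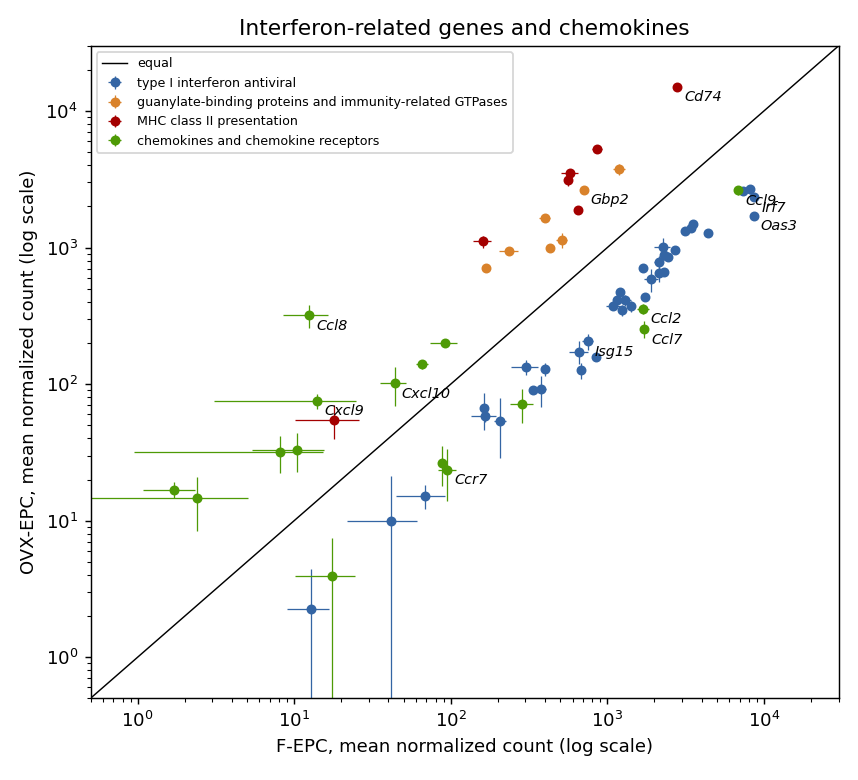
Mean normalized count in F-EPCs (x axis, log scale) and OVX-EPCs (y axis, log scale) for the listed genes of 4 groups, with 1 point per gene, bars of 1 SD over 3 libraries (cut where they would reach 0 or less) and a line where both are equal. All 38 type I interferon antiviral genes lie below the line, all 7 GTPase genes and all 7 MHC class II genes above it, and chemokine genes on both sides.

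Chemokine genes, whose products direct leukocyte traffic, went both ways. Of 16 listed chemokine and receptor genes 9 were higher and 7 lower in OVX-EPCs, 8 and 7 of them called, beside 67.4% called higher and 30.7% called lower over all members. The monocyte attractants Ccl2 and Ccl7 were lower. Ccl2 had 1619, 1603 and 1868 normalized counts in F-EPCs and 324.6, 361.7 and 386.9 in OVX-EPCs (log2 fold change -2.24, SE 0.13, adjusted p = 0.000122), and Ccl7 had 1696, 1635 and 1808 against 287.3, 253.6 and 218.0 (log2 fold change -2.76, SE 0.14). Ccl9, the most abundant of the group, was at 6986, 6820 and 6726 against 2655, 2834 and 2416. Ccl22, an attractant of regulatory T cells, was at 85.9, 84.3 and 94.4 against 20.6, 36.4 and 22.6. Its values and those of the receptor Ccr7, which guides dendritic cells to lymph nodes and fell to 12.8, 31.6 and 26.5 from 105.8, 81.3 and 98.4, separated the groups. Ccr3, the eotaxin receptor, and the receptor-like gene Ccr1l1 had log2 fold changes of -2.0 and -2.08. Ccr1l1 was not called without F-EPC replicate 2, F-EPC replicate 3 or OVX-EPC replicate 3, or in the fit with a replicate block.

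Ccl8, a monocyte and T cell attractant, had the largest rise of any gene whose mean reached 50 in F-EPCs or OVX-EPCs. It had 10.5, 17.1 and 9.8 normalized counts in F-EPCs and 363.8, 251.7 and 339.8 in OVX-EPCs (log2 fold change 4.59, SE 0.26, adjusted p = 0.000104). The interferon-induced T cell attractants Cxcl9 and Cxcl10 were at 26.2, 5.0 and 10.8 against 79.4, 82.3 and 63.8, and at 40.9, 53.2 and 37.4 against 133.4, 69.9 and 100.2. The log2 fold change of Cxcl10, whose promoter holds the interferon-stimulated response element core, was 1.16, and it was not called without OVX-EPC replicate 1 or under RLE factors (0.08). Ccl5, a T cell and monocyte attractant, had a log2 fold change of 1.14, and Xcl1, made by NK and T cells, of 2.75 at a mean of 16.9 in OVX-EPCs. Ccl5 was not called without F-EPC replicate 3 or under RLE factors. The receptors Ccr9, Cxcr1 and Cxcr5 had log2 fold changes of 1.08, 2.47 and 1.63. None of these receptors stayed called under RLE factors, and Cxcr1 was not called without OVX-EPC replicate 2 or 3. Ccl27a, at 13.6, 0 and 10.8 in F-EPCs and 33.3, 41.1 and 21.6 in OVX-EPCs, was not called (adjusted p = 0.0617). Under RLE factors 8 of the 16 were higher and Ccr9 turned to the lower side.

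Of 12 listed cytokine and receptor genes 9 were higher and 3 lower, all called, a split close to the 67.4% called higher over all members. Il12rb1, a receptor chain for the cytokines that drive interferon gamma production, had 54.5, 56.2 and 66.9 normalized counts in F-EPCs and 420.7, 349.3 and 441.9 in OVX-EPCs (log2 fold change 2.75, SE 0.15). Il12b, a chain of a ligand of that receptor, was lower, at 26.2, 33.1 and 30.5 against 5.9, 5.7 and 2.9. Ligand and receptor therefore differed in opposite directions. Il18bp, the decoy that neutralizes interleukin-18, was at 1156, 1206 and 883.3 against 2947, 3074 and 3043, and Il18r1, the receptor of the same cytokine, had a log2 fold change of 1.78. Il1rn, the antagonist of the interleukin-1 receptor, was lower by a log2 fold change of -1.17. Tnfrsf11b, the decoy receptor osteoprotegerin, and Tnfrsf9, a costimulatory receptor, had log2 fold changes of 2.82 and 2.0 at means under 30 in both groups. All 3 listed complement genes, C4b, Clu and Fcna, were higher, by log2 fold changes of 1.76, 1.21 and 2.05, beside 67.4% called higher over all members, and none of them was called under RLE factors.

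Genes of late neutrophil granules were lower in OVX-EPCs. All 9 listed of 36 in the list were lower and called, beside 30.7% called lower over all members, with a median log2 fold change of -2.90. Their summed level was 1090 to 1204 normalized counts in F-EPC libraries and 273.6 to 301.5 in OVX-EPC libraries. Ltf, the iron-binding granule protein lactoferrin, had the largest drop of any gene with a mean of at least 50. It had 119.4, 81.3 and 127.9 in F-EPCs and 7.8, 2.9 and 4.9 in OVX-EPCs (log2 fold change -4.21, SE 0.35, adjusted p = 0.000263). The calprotectin subunits S100a8 and S100a9 were at 193.8, 210.7 and 169.2 against 36.3, 21.1 and 26.5, and at 165.5, 131.4 and 119.0 against 18.6, 10.5 and 12.8. Lcn2, which binds bacterial siderophores, was at 111.0, 63.2 and 106.2 against 15.7, 8.6 and 5.9. Chil3, a chitinase-like protein of neutrophils and macrophages, had a log2 fold change of -2.90, while Ngp, a granule protein, and the formyl peptide receptor Fpr1 had smaller ones, of -1.05 and -1.09.

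The remaining neutrophil genes were at low counts. Itgb2l, a neutrophil integrin subunit, had 14.7, 13 and 6.9 normalized counts in F-EPCs and 0, 1.0 and 0 in OVX-EPCs, with a 95% exact interval of 5.93 to 1435 for the ratio of F-EPCs to OVX-EPCs. Cd177, a surface marker of neutrophils, was at 28.3, 31.1 and 4.9 against 0, 1.0 and 7.9, and its libraries overlapped. It was no longer called without any of 4 of the libraries, as given under the dependence on the processing. The primary granule list had 1 listed gene of 10, Elane, the elastase of promyelocytes, and it went the other way, from 10.5, 10 and 0 to 11.8, 40.2 and 33.4, without a call by limma (adjusted p = 0.074), while edgeR and DESeq2, run with the deposited scaling, called it (adjusted p = 0.0155 and 0.00589). Late granule genes and the primary granule gene were therefore not on the same side, at counts where single libraries weigh much.

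Of 50 monocyte and macrophage genes 8 were listed, 5 higher and 3 lower, all called, near the shares over all members (67.4% called higher, 98.1% called). Spp1, the secreted phosphoprotein osteopontin, was the most abundant gene of the table in F-EPCs and came after Selenop in OVX-EPCs, with 107873.0, 105485.2 and 101549.4 normalized counts in F-EPCs and 34160.3, 33995.9 and 33829.1 in OVX-EPCs (log2 fold change -1.63, SE 0.10, adjusted p = 0.000143). Ms4a4c, a membrane protein of monocytes, and Cd300e, an activating monocyte receptor, were lower as well, by log2 fold changes of -1.80 and -3.56, the latter from 45.0, 18.1 and 16.7 to 0, 3.8 and 1.0. The other 5 genes of the list were higher. Fcgr2b had 4711, 4551 and 4497 in F-EPCs and 13239.3, 13378.3 and 13368.2 in OVX-EPCs (log2 fold change 1.54, SE 0.10). Cd163, the hemoglobin scavenger receptor, was at 76.5, 62.2 and 47.2 against 176.5, 174.2 and 134.5. Timd4, which binds phosphatidylserine on dying cells, was at 5.2, 0 and 3.9 against 23.5, 14.3 and 27.5, and Spic, the factor of red pulp macrophages, and F13a1 had log2 fold changes of 1.13 and 1.14. Of the genes named by the rule given under the processing, Fcgr2b, Cd163 and Timd4 were no longer called under RLE factors. A pseudocount of 0.1 also ended the call of Timd4. The defining markers Csf1r, Adgre1, Cd68 and Cd14 are not listed in this comparison, so a change in the share of these cells was not tested.

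Of 8 listed dendritic cell genes 6 were higher, close to the 67.4% called higher over all members, and Ccr7 and Ccl22, given above, were lower. Clec10a and its neighbour Mgl2, paired lectin receptors, had log2 fold changes of 1.5 and 1.29. Clec10a had 798.2, 664.2 and 797.7 normalized counts in F-EPCs and 2182, 2058 and 2131 in OVX-EPCs. Asgr2, a hepatic lectin gene beside them on chromosome 11, was at 12.6, 17.1 and 20.7 against 103.0, 77.5 and 93.3. Siglech and Pacsin1, genes of plasmacytoid dendritic cells, were at 33.5, 16.1 and 18.7 against 77.5, 87.1 and 85.4, and at 2.1, 7.0 and 1.0 against 26.5, 29.7 and 35.4. Under RLE factors 4 of the 8 were higher.

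Lymphocyte genes were higher in all 10 listed of 48, each called, beside 67.4% called higher over all members, with a median log2 fold change of 1.62 beside 1.30. Under RLE factors 9 of 10 values stayed above 0, but only those of Cd3d and Igkc stayed above 1. The other genes of the list, Cd4, Ighm, Jchain and Ncr1 among them, were thus no longer called. Cd4, carried by T cells and by some macrophages and dendritic cells, had 3591, 3409 and 3415 normalized counts in F-EPCs and 8688, 8287 and 9199 in OVX-EPCs (log2 fold change 1.33, SE 0.11). Cd3d, part of the T cell receptor complex, stayed at 2.1, 1.0 and 1.0 against 9.8, 10.5 and 10.8, so the defining T cell gene was near the floor beside the far higher counts for Cd4. Ighm, the heavy chain of IgM, was at 633.7, 598.0 and 513.4 against 2068, 2050 and 2072, and Igkc, the kappa light chain, at 138.3, 120.4 and 97.4 against 583.4, 669.9 and 644.3. Cd22, an inhibitory B cell receptor, and Cd79b, part of the B cell receptor, had log2 fold changes of 1.14 and 1.06. Jchain, which joins IgM and IgA units, and Ncr1, an NK cell receptor, had log2 fold changes of 1.96 and 1.75. Chosen by gene name after the values were seen, 11 immunoglobulin genes were listed and all 11 were higher and called, beside 67.4% called higher over all members. Ighv11-2, a heavy chain variable gene, was the most abundant of the variable genes after Igkv14-126, with 13.6, 27.1 and 18.7 in F-EPCs and 156.9, 150.2 and 157.1 in OVX-EPCs. Immunoglobulin segments resemble each other, and their single values are uncertain.

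Platelet and megakaryocyte genes were higher in all 4 listed of 31, each called, beside 67.4% called higher over all members. Gp9 and Alox12, with rises close to 1, fall below 0 under RLE factors, and Clec1b was no longer called. Tubb1, the platelet form of tubulin, had 115.2, 177.6 and 126.9 normalized counts in F-EPCs and 685.4, 604.8 and 670.8 in OVX-EPCs (log2 fold change 2.24, SE 0.19). Clec1b, the platelet receptor of podoplanin, had a log2 fold change of 1.19, and Pdpn, which encodes podoplanin, one of 2.12. Of the erythroid list 2 of 20 were listed, and Epor, the erythropoietin receptor, was at 60.8, 70.2 and 95.4 against 304.0, 265.1 and 303.5. None of the basophil and mast cell, osteoclast or epithelial lists was listed, and of the eosinophil list only Ccr3.

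Genes of the extracellular matrix were higher without exception among those listed. All 22 listed of 64 were higher and 21 were called, beside 67.4% called higher over all members. The median log2 fold change was 2.37, beside 1.30 over all members. Pcolce, which trims procollagen, missed the call at a log2 fold change of 1.0, and it alone turned to the lower side under RLE factors. The summed level was 797.7 to 997.2 normalized counts in F-EPC libraries and 3391 to 3635 in OVX-EPC libraries. Col1a2, a chain of type I collagen, had 123.6, 116.4 and 107.2 in F-EPCs and 646.2, 509.1 and 617.7 in OVX-EPCs (log2 fold change 2.34, SE 0.14, adjusted p = 0.000128). Its partner chain Col1a1 was at 29.3, 4.0 and 4.9 against 89.2, 38.3 and 77.6, with F-EPC replicate 1 above the other F-EPC libraries.

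Fn1, the adhesive glycoprotein fibronectin, had the highest level of the group, at 275.5, 325.1 and 182.0 normalized counts against 826.6, 784.7 and 751.3. Hspg2, the basement membrane proteoglycan perlecan, was at 88.0, 103.3 and 70.8 against 460.9, 511.0 and 503.8, and Ltbp2, an elastic fibre protein, at 56.6, 57.2 and 84.6 against 380.5, 357.9 and 388.9. Both separated the groups widely. Nid1, which links laminin to collagen in basement membranes, was at 3.1, 9.0 and 6.9 against 45.1, 67.9 and 53.0. Col16a1, Lum and Col8a1, matrix genes of fibroblasts, had log2 fold changes of 3.14, 3.29 and 2.47. Edil3, an integrin ligand of developing vessels, had 0 in every F-EPC library and 20.6, 20.1 and 20.6 in OVX-EPCs, at least 6.74-fold higher against the floor of 3 reads per library.

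Contractile genes were higher in all 7 listed of 24, each called, beside 67.4% called higher over all members, with a median log2 fold change of 3.29, or 2.39 with genes at 0 set to their bound. Of its genes named by the rule given under the processing, Myl9 and Cald1 were no longer called under RLE factors. Des, the intermediate filament desmin of muscle cells and pericytes, had 0 in every F-EPC library and 18.6, 27.8 and 27.5 normalized counts in OVX-EPCs, at least 8.12-fold higher. Acta1, skeletal actin, was at 1.0, 1.0 and 1.0 against 32.4, 48.8 and 27.5, with a 95% exact interval of 12.0 to 177 for the ratio. Actc1, cardiac actin, had 0 in F-EPCs and 19.6, 9.6 and 8.8 in OVX-EPCs, at least 4.18-fold higher. Myl9, the light chain of smooth muscle myosin, was at 5.2, 2.0 and 8.9 against 25.5, 26.8 and 35.4, and Cald1, an actin-binding regulator, at 95.3, 56.2 and 95.4 against 202.0, 255.5 and 240.6. Flnc, an actin crosslinker of muscle that the list did not hold, had a log2 fold change of 4.03, at 0, 4.0 and 7.9 against 64.7, 47.9 and 58.9.

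The CArG box, the site of serum response factor at muscle genes, was in 3 of 7 promoters of the contractile group, Acta1, Actc1 and Myl9, beside 1.39% of all promoters and 1.97% of those of the higher genes. The 150 bases before the start of both actins show it in capitals, at chr8:123894776-123894925, minus strand for Acta1 and chr2:114052876-114053025, minus strand for Actc1.
Acta1: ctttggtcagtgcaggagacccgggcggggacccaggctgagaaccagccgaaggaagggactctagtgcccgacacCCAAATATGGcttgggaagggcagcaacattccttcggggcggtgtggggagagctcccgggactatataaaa
Actc1: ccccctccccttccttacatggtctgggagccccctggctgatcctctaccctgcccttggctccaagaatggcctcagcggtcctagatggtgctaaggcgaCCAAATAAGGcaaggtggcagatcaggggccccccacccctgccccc

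Mesenchymal markers were higher in all 8 listed of 25, each called, beside 67.4% called higher over all members, with a median log2 fold change of 2.41 and a summed level of 111.4 to 167.6 normalized counts in F-EPC libraries and 651.7 to 700.2 in OVX-EPC libraries. Pdgfra, the growth factor receptor of stromal progenitors, was at 4.2, 4.0 and 2.0 against 45.1, 46.9 and 52.0 (log2 fold change 3.52, SE 0.25, adjusted p = 0.00018). Prrx1, a homeobox factor of limb mesenchyme, was at 23.1, 7.0 and 37.4 against 131.4, 145.5 and 140.4. Cspg4, the proteoglycan NG2 of pericytes, was at 0, 13 and 4.9 against 60.8, 37.3 and 39.3, and was not called without OVX-EPC replicate 1. Ddr2, a collagen receptor, had a log2 fold change of 2.71. Under RLE factors all 8 stayed above 0, and of those named by the rule given under the processing Pdpn was no longer called. The defining markers Pdgfrb, Twist1 and Cdh11 are not listed. Bone lineage genes were near the floor: all 4 listed of 20 were higher, beside 67.4% called higher over all members, and the osteoblast genes Sp7, Ibsp and Dmp1 had 0 in F-EPCs and at most 19.6 in any OVX-EPC library. Sox9, the factor of cartilage, was at 9.4, 2.0 and 2.0 against 34.3, 70.8 and 41.2. Whether the share of stromal cells differed between the groups was not tested.

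Imprinted genes, which are read from a single parental copy and tend to be high in fetal and stromal tissue, were higher in all 4 listed of 34, each called, beside 67.4% called higher over all members. Under RLE factors Cdkn1c, Mest and Dcn were no longer called. H19, a noncoding RNA of fetal tissue, had 0 in every F-EPC library and 34.3, 9.6 and 39.3 normalized counts in OVX-EPCs, at least 9.14-fold higher. Cdkn1c, a brake on the cell cycle, was at 77.5, 131.4 and 82.6 against 341.2, 466.0 and 381.1 (log2 fold change 2.04, SE 0.25). Mest and the matrix proteoglycan Dcn had log2 fold changes of 1.84 and 1.53. From the insulin-like growth factor axis the binding proteins Igfbp5 and Igfbp2 had 0 in F-EPCs and 28.4, 14.3 and 22.6, and 26.5, 9.6 and 18.7, in OVX-EPCs, at least 7.18-fold and 6.01-fold higher. Igf2bp2, an RNA-binding protein, was lower, from 1506, 1600 and 1552 to 717.8, 675.6 and 637.4. Neuronal genes at low counts were higher too: Stmn2, a tubulin regulator of growing neurites, had 0 in F-EPCs and 19.6, 17.2 and 22.6 in OVX-EPCs, at least 6.53-fold higher, and Ngfr, the low-affinity neurotrophin receptor that also marks marrow stroma, was at 5.2, 5.0 and 0 against 36.3, 24.9 and 48.1.

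**Figure D3:**
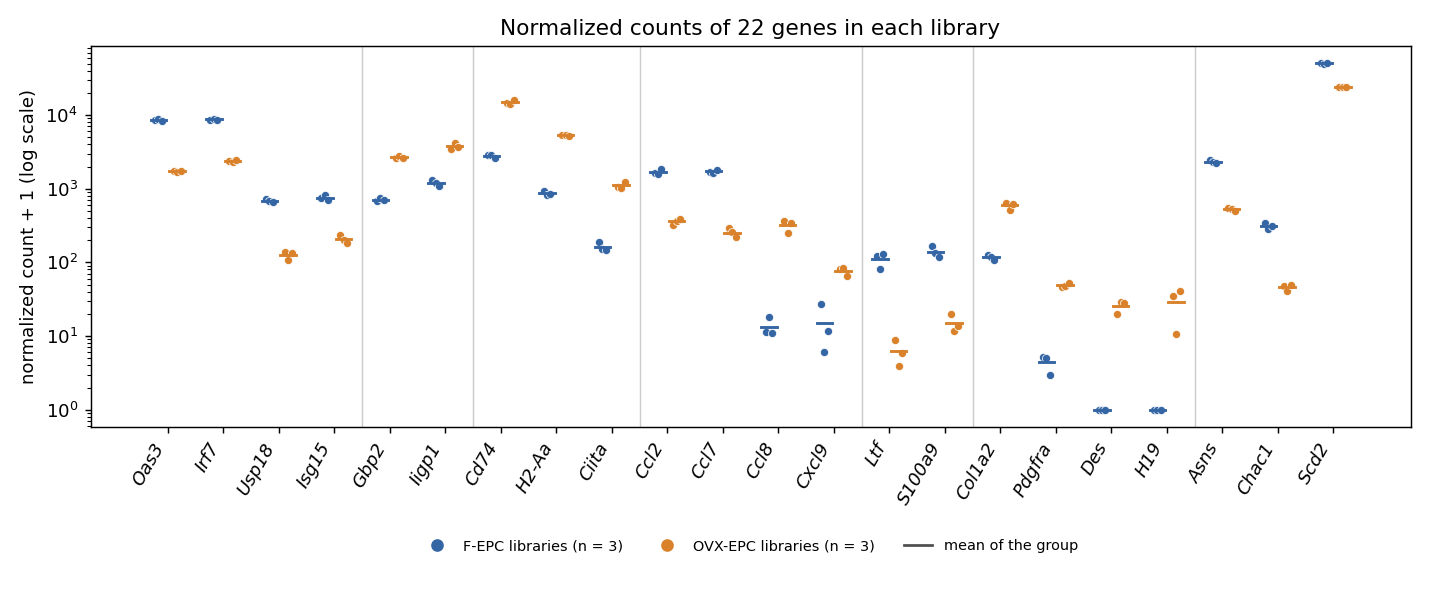
Normalized count plus 1 (y axis, log scale) of 22 genes in each F-EPC and OVX-EPC library, with points for libraries and lines for group means. From left to right stand type I interferon genes, interferon-induced GTPases, MHC class II genes, chemokines, neutrophil granule genes, stromal genes and metabolic genes and in each of the 22 the libraries of the groups do not overlap.

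Of 51 endothelial identity genes 7 were listed, 5 higher and 2 lower, all called, near the shares over all members (67.4% called higher, 98.1% called). Jag1, the Notch ligand of sprouting vessels, had 570.9, 553.9 and 589.2 normalized counts in F-EPCs and 172.6, 196.2 and 207.2 in OVX-EPCs (log2 fold change -1.57, SE 0.12, adjusted p = 0.000239). Procr, the receptor of protein C that also marks stem cells, was at 136.2, 184.6 and 182.0 against 75.5, 48.8 and 57.0. Stab2, a hyaluronan scavenger receptor of sinusoids, was at 327.9, 310.0 and 302.9 against 645.2, 625.9 and 667.8. Unc5b, a netrin receptor, and Sox7, a vascular transcription factor, had log2 fold changes of 1.09 and 2.41, and Sox7 did not exceed 24.6 in any library. Stab2 and Unc5b, with rises close to 1, fall below 0 under RLE factors.

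Of 63 growth and guidance factors 12 were listed and 11 of these were higher, all called, beside 67.4% called higher and 98.1% called over all members. Pdgfc, a ligand of the receptor that Pdgfra encodes, had 563.6, 584.0 and 716.1 normalized counts in F-EPCs and 1708, 1697 and 1836 in OVX-EPCs (log2 fold change 1.5, SE 0.14). Bmp2, a bone-forming ligand, was at 72.3, 62.2 and 59.0 against 210.8, 196.2 and 175.8, and its antagonist Grem1 at 44.0, 51.2 and 34.4 against 156.9, 185.6 and 209.2. Ligand and antagonist were thus higher together. The guidance ligands Slit2 and Sema3a had log2 fold changes of 1.67 and 3.29. Angptl4, a lipase inhibitor that acts on vessels, had one of 1.04, which falls below 0 under RLE factors, and Angptl6 was lower, at 29.3, 30.1 and 17.7 against 12.8, 8.6 and 1.0. Leaving out any of 4 of the libraries, or a pseudocount of 0.1, ended the call of Angptl6. Of the genes named by the rule given under the processing, Slit2 and Grem1 were also no longer called under RLE factors.

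Among 15 listed proteases and inhibitors 14 were higher and 1 lower, all called, beside 67.4% called higher and 98.1% called over all members. Mmp28, the matrix metalloprotease epilysin, was the lower gene, at 46.1, 56.2 and 43.3 normalized counts against 3.9, 9.6 and 9.8. Mmp16, a membrane-bound metalloprotease, was at 0, 4.0 and 1.0 against 26.5, 22 and 24.6, and Adamts14, a procollagen protease, at 5.2, 3.0 and 11.8 against 45.1, 46.9 and 25.5. Serpina3f, a serine protease inhibitor, was at 29.3, 24.1 and 9.8 against 140.2, 194.3 and 206.2 (log2 fold change 3.15, SE 0.43).

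A group of enzymes and transporters of amino acids was put together after the values were seen, from genes known to answer to amino acid shortage and from serine synthesis. Of 52 such genes 12 were listed, and all 12 were lower and called, beside 30.7% called lower over all members, with a median log2 fold change of -1.65 and summed levels of 18943.6 to 19309.8 normalized counts in F-EPC libraries and 6310 to 6428 in OVX-EPC libraries. Asns, asparagine synthetase, had 2414, 2280 and 2234 in F-EPCs and 541.3, 533.0 and 502.8 in OVX-EPCs (log2 fold change -2.13, SE 0.11, adjusted p = 9.92e-05). Phgdh and Psat1, successive enzymes of serine synthesis, were at 1670, 1624 and 1776 against 371.6, 379.9 and 408.5, and at 2917, 3059 and 2898 against 934.5, 986.6 and 878.0. Mthfd2 and Shmt2, mitochondrial enzymes that use serine for one-carbon units, had log2 fold changes of -1.44 and -1.01. Chac1, which breaks down glutathione, was at 338.3, 279.9 and 305.9 against 47.1, 39.2 and 48.1, and Trib3, a stress-induced pseudokinase, at 416.9, 489.6 and 456.4 against 95.1, 63.2 and 121.8. The transporters Slc7a5, Slc7a1 and Slc1a4 had log2 fold changes of -1.63, -1.48 and -1.88. Slc7a2, another carrier of basic amino acids, was not in this group and was higher, at 91.1, 146.5 and 94.4 against 462.8, 535.9 and 469.4.

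The response element of this pathway, bound by ATF4 with C/EBP factors, was searched for as TGATG, any base, then AA, on both strands, also chosen after the values were seen. It was in 5 of 11 promoters of the group, Asns, Chac1, Nupr1, Slc1a4 and Trib3, beside 3.31% of all promoters and 6.71% of those of the lower genes. In the promoter of Asns, at chr6:7693210-7693359, minus strand, it lies close to the start and is shown in capitals, since Asns is the textbook gene of this element.
Asns: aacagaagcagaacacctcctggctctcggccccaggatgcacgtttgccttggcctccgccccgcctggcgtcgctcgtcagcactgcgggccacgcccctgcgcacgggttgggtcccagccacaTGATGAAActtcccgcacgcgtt

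Listed genes of lipid metabolism went both ways. The fixed list of lipid and cholesterol genes had 5 listed of 48, with Scd1, Scd2 and Cyp51 lower and Pltp and Angptl4 higher, and a list of synthesis genes put together after the values were seen had 8 of 39, all 8 lower and called, beside 30.7% called lower over all members. Scd2, a desaturase that makes monounsaturated fatty acids, had 50310.6, 49885.5 and 50422.6 normalized counts in F-EPCs and 23660.6, 24234.0 and 23923.7 in OVX-EPCs (log2 fold change -1.07, SE 0.10, adjusted p = 0.000339). Scd1 was at 5440, 5981 and 5464 against 2492, 2565 and 2426, and Cyp51, which demethylates lanosterol, at 6359, 6629 and 6689 against 3226, 3357 and 3160. These changes lay just past a log2 fold change of 1, with little spread between libraries. Elovl6, Fads2 and Acat2 had log2 fold changes of -1.45, -1.25 and -1.30. Pltp, the phospholipid transfer protein of plasma lipoproteins, was higher, at 3233, 3510 and 3634 against 7139, 6223 and 7456, which falls below 0 under RLE factors.

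Of 32 estrogen receptor and textbook estrogen-responsive genes 1 was listed, beside 3.18% of all autosomal protein-coding genes. It was Ltf, which is also a neutrophil granule gene and was lower with the other 8 of that list. The palindromic estrogen response element, GGTCA and TGACC set 3 bases apart, was in 0 of 504 promoters of members, where 9 of 15687 hold it. At that share 0 is a likely count for any 504 promoters, so the search cannot set the members apart. The hexamer AGGTCA, on either strand, was in 14.1% of promoters of higher genes, 13.4% of those of lower genes and 14% of all. Among steroid enzymes and nuclear receptors 4 of 46 were listed. Hsd17b7, which acts in both cholesterol and estradiol synthesis, was lower, at 1769, 1648 and 1816 normalized counts against 792.3, 882.3 and 766.0. Cyp27a1, which hydroxylates cholesterol, was at 545.7, 566.9 and 573.4 against 1496, 1420 and 1635, while Cyp1b1, which hydroxylates estradiol, and Vdr, the vitamin D receptor, had log2 fold changes of 1.18 and 1.25.

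Of 62 cell cycle genes 3 were listed, where 3.18% of all autosomal protein-coding genes are. Cdc6, which loads the replication helicase, was lower, at 621.2, 493.7 and 573.4 normalized counts against 291.2, 252.6 and 261.2. The inhibitors Cdkn2a and Cdkn2b, neighbouring genes of growth arrest, were higher, at 7.3, 6.0 and 9.8 against 81.4, 38.3 and 53.0, and at 26.2, 4.0 and 7.9 against 61.8, 41.1 and 35.4. Leaving out any of 3 libraries ended the call of Cdkn2b. All 4 listed histone genes were lower, 3 of them called, beside 30.7% called lower over all members. H2bc13 was at 1132, 1009 and 929.5 against 523.6, 406.7 and 585.3, and was not called without F-EPC replicate 1 or OVX-EPC replicate 2. The histone gene H2ac24 overlapped between groups and was not called (adjusted p = 0.0794). The immediate early genes Fos and Dusp4, which follow growth factor signals, had log2 fold changes of -1.02 and -1.35. Hypoxia and glycolysis genes and ribosomal and mitochondrial genes had 0 listed.

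Among the remaining abundant genes, Selenop, the plasma selenium carrier, had 22379.9, 21395.8 and 20396.6 normalized counts in F-EPCs and 64074.8, 68798.6 and 63471.5 in OVX-EPCs (log2 fold change 1.61, SE 0.11). It became the gene with the highest level per kilobase in OVX-EPCs, 23029, where Spp1 stood at 20628.1. In F-EPCs Spp1 stood at 63694.9 and Selenop at 7527. Trf, transferrin, was at 9676, 9853 and 10111.3 against 22360.4, 20643.5 and 22821.8, and Mfge8, which bridges dying cells to phagocytes, had a log2 fold change of 1.13. Azin1, which raises polyamine synthesis, was lower by a log2 fold change of -1.17. Among the largest rises were Dnase1l3, a secreted DNase of macrophages and dendritic cells, at 10.5, 22.1 and 12.8 against 244.2, 295.7 and 242.6, Tlr12, a sensor of parasite profilin, at 9.4, 4.0 and 4.9 against 102.0, 75.6 and 122.8, and Adcy4, an adenylate cyclase, at 3.1, 4.0 and 8.9 against 91.2, 66.0 and 136.5. G0s2, an inhibitor of fat breakdown, was among the largest drops, at 119.4, 103.3 and 90.5 against 6.9, 15.3 and 24.6. Ly6a2, a relative of the Sca-1 gene, had 9.4, 11 and 9.8 in F-EPCs and 1.0, 0 and 0 in OVX-EPCs, with a 95% exact interval of 5.18 to 1271 for the ratio.

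**Figure D4:**
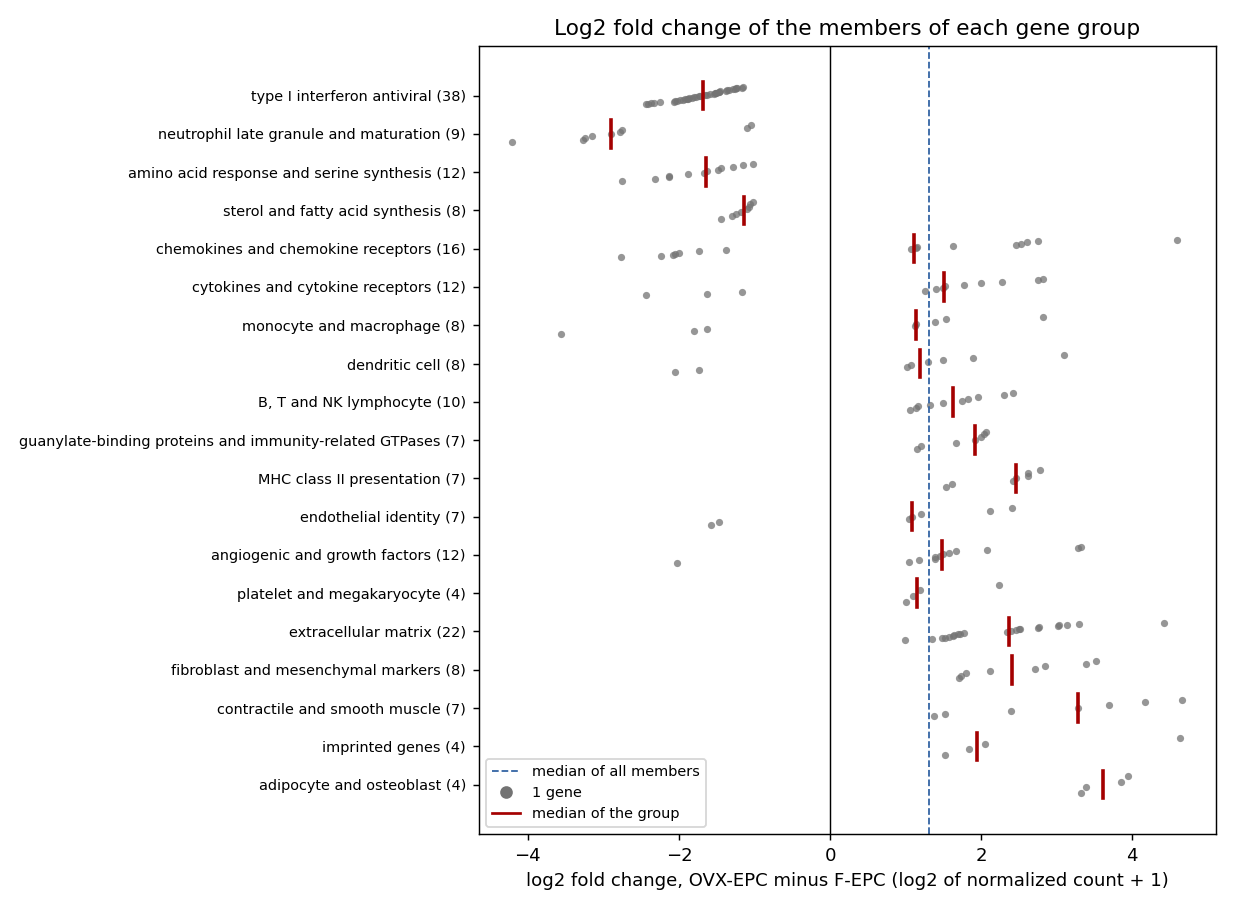
Log2 fold change, OVX-EPC minus F-EPC (x axis), of each listed gene of 19 groups (rows, with the number of listed genes), with a bar at the median of the group and a dashed line at the median of all 797 genes, 1.30. Interferon antiviral, neutrophil granule, amino acid and sterol genes lie wholly below 0, and matrix, mesenchymal, contractile and MHC class II genes wholly above it.

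Some members lay side by side in the genome. Among annotated protein-coding genes, 65 pairs of members were direct neighbours, and 58 of these differed in the same direction. With 479 protein-coding members higher and 183 lower, many pairs would share a direction wherever they lay, and some runs hold close copies, as of Oas1. There were 10 runs of 3 or more, with 32 genes. They include H2-Ob, H2-Ab1, H2-Aa and H2-Eb1 at chr17:34238903-34316674, all higher, Ifit3b, Ifit1bl2 and Ifit1 at chr19:34607970-34650009, all lower, and Oas1h, Oas1g and Oas1a at chr5:120861421-120907521, all lower (GRCm38, GENCODE). In the run of Dtx1, Oas2 and Oas3 on the same chromosome, Dtx1, a Notch regulator, was higher by a log2 fold change of 1.33 beside lower Oas genes. Selenop and Ccdc152, in a run with the growth hormone receptor gene Ghr (log2 fold change 2.76), overlap at their ends on opposite strands. The library kit marks strand, but whether the counting used it is not given in the sources used here, so the value of Ccdc152 is uncertain. Other runs were Gbgt1, Gm10134 and Ralgds on chromosome 2, and Cdc42ep5, Lilra5 and Ncr1 on chromosome 7, all higher. Over chromosomes, members made up between 1.75% (chromosome 18) and 4.39% (chromosomes 1 and 11) of protein-coding genes, beside 3.18% over all autosomes. Among protein-coding members, the median exon length was 4654 bases for higher genes and 3487 for lower genes, beside 3561 over all protein-coding autosomal genes.

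Libraries of a group agreed closely except for a few genes. The median absolute deviation of a gene from its group mean was 0.149 to 0.191 on the log2 scale over the 6 libraries. Lars2, the mitochondrial leucyl-tRNA synthetase, had 15653.9, 857.9 and 5011 normalized counts in F-EPCs and 1023, 548.3 and 626.6 in OVX-EPCs, so F-EPC replicate 2 fell within the OVX-EPC range. It was not called (log2 fold change -2.53, SE 1.06, adjusted p = 0.0584), but edgeR and DESeq2, run with the deposited scaling, called it (adjusted p = 0.000603 and 0.00192), as did limma without F-EPC replicate 2 (-3.65), and without F-EPC replicate 1 its log2 fold change was -1.55. Gm15564 was at 211.6, 18.1 and 65.9 against 7.8, 7.7 and 6.9, in the same order of F-EPC libraries, and the unnamed gene ENSMUSG00002076173 at 3013, 265.9 and 122.0 against 74.5, 13.4 and 25.5. In these 3 genes F-EPC replicate 1 was the highest library. For Oas3, Irf7, Cd74 and Asns, in contrast, the F-EPC libraries lay close together, as their values above show.

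**Figure D5:**
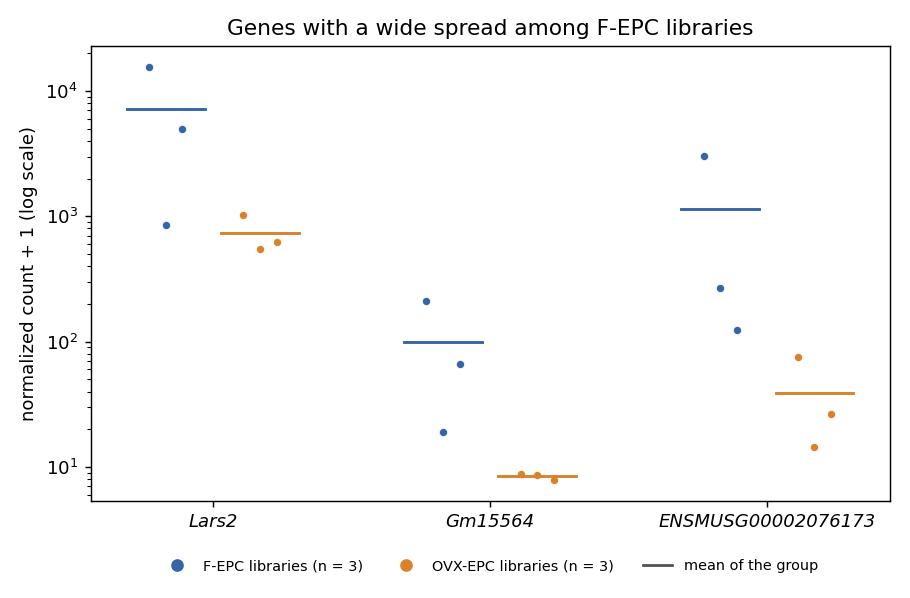
Normalized count plus 1 (y axis, log scale) of Lars2, Gm15564 and ENSMUSG00002076173 in each library, with points for libraries and lines for group means. F-EPC replicate 1 is the first point of each F-EPC set and lies above the others, and F-EPC replicate 2 overlaps the OVX-EPC libraries for Lars2.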

How the data were processed

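The authors sequenced the libraries on a NovaSeq 6000 and aligned the reads to mm10 with HISAT2, and their processing notes also name Cufflinks, Cuffnorm and DESeq. The methods name a directional library kit. Versions, the strand setting of the counting and the treatment of reads with several matches are not given in the sources used here. The deposited table holds only genes that passed the authors' screen on fold change and false discovery rate in these same libraries. The signal values deposited by the authors are normalized counts, the reads of a gene divided by a size factor, and whole reads were recovered for 100% of values. The deposited columns of fold changes and p-values were not used. Of the 797 genes 780 were placed by GENCODE symbol and 12 by RefSeq symbol, and 5 without a match were kept. The main test was limma 3.58.1 (R 4.3.3) on log2(normalized count + 1), with adjustment by Benjamini-Hochberg over 797 genes, and was tested on simulated data. edgeR 4.0.16 and DESeq2 1.42.0 on the recovered reads, another pseudocount, a filter, a replicate block and leaving out each library were alternatives. Promoters came from RefSeq on GRCm38.p6, for 504 members.

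Members and gene lists were chosen with earlier results of these data known. Genes were named by a rule: up to 4 per list with the largest changes at a mean of at least 20, the 10 largest changes in each direction at a mean of at least 50, the 10 most abundant genes in each direction, runs of neighbours, all listed genes of the estrogen, imprinted, MHC class II, chemokine and endothelial lists, and the sort markers with genes that the study names. This gave 175 genes. Other genes printed are further members of the same lists, or are said to be chosen after their values were seen.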

Additional observations from a re-analysis of the deposited data

How the results depend on the processing

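With RLE factors computed on the listed genes, edgeR called 393 genes, 143 of them higher, and 111 of the genes named by rule. The same counts were 796, 546 and 175 for edgeR with the authors' size factors, and 782, 537 and 171 for limma. Scaling with RLE factors centres the listed genes by construction, with a shift of the median of -1.12, so sign changes of small rises follow from it. It ended the call of 54 named genes (Lilra5, H2-Q7, Mfge8, Ccl5, Trf, Cxcl10, Cyp1b1, Clec1b, Pecam1, Clu, Vdr, Mgl2, Fgl2, Cd4, Dtx1, Gm10134, Ralgds, Ccdc152, Gbgt1, Cd163, Cyp27a1, Clec10a, Cald1, Dcn, H2-DMa, Fcgr2b, Selenop, H2-Ob, Cxcr5, Slit2, Ncr1, C4b, Ighm, Mest, Siglech, Gbp2, Epor, Jchain, Gbp5, Tnfrsf9, Gbp8, Cdkn1c, Fcna, Gbp4, Grem1, Cdkn2b, Pdpn, Tubb3, Myl9, Sox7, Cxcr1, Timd4, Tnfrsf11b and Cdc42ep5) and turned the sign of 8, with log2 fold changes of -0.12 for Pltp, -0.10 for Gp9 and Angptl4, -0.08 for Stab2, -0.07 for Unc5b, -0.04 for Ccr9 and Pgap1 and -0.02 for Alox12. Under the other settings the counts stayed within 1.5 times of the main ones, from 652 genes at a false discovery rate of 0.01 to 797 with DESeq2. A pseudocount of 0.1 ended the call of 7 named genes, Cd177, Gm45418, Angptl6, Cxcr1, Timd4, Tnfrsf11b and Cspg4. Leaving out each library gave 710 to 740 genes called, 489 to 513 higher and 219 to 227 lower, and 158 to 167 of the named genes. It ended the call of 26 named genes, 6 of them for 1 library only. These were Ccl5 (F-EPC replicate 3), Cdc6 (F-EPC replicate 1), Cspg4, Cxcl10 and Cyp1b1 (OVX-EPC replicate 1) and Fos (OVX-EPC replicate 2). Angptl4, Cxcr1, Cyp51, ENSMUSG00002076173, Gm15564, H2-Q7, H2bc13, Tnfrsf11b and Unc5b lost it for 2 libraries, and Ccr1l1, Cdkn2b, Gp9, H2bu1-ps, Lilra5 and Pltp for 3. Cd177, Ifitm6, Angptl6, Tubb3 and Gm45418 lost it for 4 libraries, and the adjusted p-values of limma for Cd177 were then 0.109 to 0.114. Replicate numbers did not pair the libraries: the correlations of same-numbered libraries were 0.019, 0.033 and 0.012, and F-EPC replicate 3 correlated best with OVX-EPC replicate 1. The fit with the replicate block called 767 genes, Lars2 among them (adjusted p = 0.034 by limma), and ended the call of 3 named genes, Cd177 (0.102), Ccr1l1 (0.0511) and Cxcr1 (0.0511). Lars2, H2ac24, Elane and Ccl27a, which limma did not call, were called by edgeR (adjusted p = 0.000603, 0.0109, 0.0155 and 0.0119) and by DESeq2 (0.00192, 0.00459, 0.00589 and 0.00393) with the authors' size factors. Ccl27a was also called by limma without F-EPC replicate 1 or 2, and Lars2 and H2ac24 without F-EPC replicate 2. Depth outside the listed genes is unknown, which limits what can be said of genes near the floor.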

Other observations

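The other tables of the series set some of these genes beside M-EPCs, from male mice, with a separate normalization for each table, so the values are given side by side with no test. Of the 547 higher genes 134 were in neither table with M-EPCs, 118 only in that with OVX-EPCs, 199 only in that with F-EPCs and 96 in both, and of the 250 lower genes 69, 47, 109 and 25. For Cd74 the means were 78117.7 ± 1667 (SD, n = 3) normalized counts in M-EPCs beside 2697 in F-EPCs, and 79866.5 ± 1674 beside 14751.2 in OVX-EPCs. Gbp2 had 20987.3 ± 550.1 beside 679.7 and 21456.9 ± 540.2 beside 2617. For both genes the order of the levels was M-EPC, OVX-EPC and F-EPC.

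Of the antiviral genes 3 are in both tables. Usp18 had 260.3 ± 28.7 in M-EPCs beside 657.6 in F-EPCs, and 266.2 ± 29.3 beside 123.9 in OVX-EPCs. Slfn1 had 362 ± 20.9 beside 819.9 and 370.1 ± 21.8 beside 156.3, so that for these genes M-EPCs lay between the female groups. Slfn4 was lowest in M-EPCs, at 37.5 ± 12.3 beside 640 and 38.3 ± 12.6 beside 170.3. Oas3 had 4743 ± 116.5 beside 1690 in OVX-EPCs, and the table of M-EPCs and F-EPCs does not list it. Spp1 and Scd2 were lowest in M-EPCs, at 5291 ± 141.9 beside 101217.9 in F-EPCs and 5410 ± 148.9 beside 33434.0 in OVX-EPCs for Spp1, and 7677 ± 181.2 beside 48411.6 and 7849 ± 185 beside 23544.6 for Scd2. Cdkn1c was lowest in M-EPCs too, at 31.4 ± 9.89 beside 93.7 and 32.1 ± 10.1 beside 389.6. Des and H19 were listed at 0 in every M-EPC library, beside means of 24.2 and 27.3 in OVX-EPCs.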
